A study of Mus musculus with 18 samples.

Results

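Expression of 9 genes that encode subunits of the Polycomb complexes, Ezh1, Ezh2, Eed, Suz12, Jarid2, Cbx2, Cbx7, Cbx8 and Bmi1, was followed through the differentiation of mouse ESCs towards blood cells and in MEFs that received blood transcription factors. The genes were taken by name from both expression tables. The MEF table held all 9 genes among 20268, and 8 of them were analysed among the 20115 genes of the stage table, where Jarid2 was not analysed here.

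Polycomb proteins keep developmental genes silent through 2 kinds of complex. PRC2 methylates histone H3 on lysine K27, with EZH2 or its relative EZH1 as the enzyme and EED and SUZ12 as the core around it, and JARID2 is an accessory subunit that helps to bring the complex to chromatin. Canonical PRC1 reads this mark through a CBX protein such as CBX2, CBX7 or CBX8, ubiquitinates histone H2A through a RING1 protein and compacts chromatin, with BMI1 or its relative PCGF2 (MEL18) beside the RING1 subunit. EZH2 is typical of dividing cells and EZH1 of cells that have left the cycle, and BMI1 is known for the repression of Cdkn2a and for the self-renewal of blood stem cells.

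The sample labels named the mouse strain 129. Only strain labels made of digits were collected, so this need not cover every sample. The stages came from ESCs with GFP in the Brachyury (Bry) locus, cultured on MEF feeders (ESC), and from their progeny sorted as Bry-GFP+ FLK1- mesoderm (MES), Bry-GFP+ FLK1+ haemangioblast (HB), CD41+ haematopoietic progenitors (HP) and CD11b+ macrophages (MAC). Each stage had 2 replicates, which the deposited table combines in 1 value, so no stage value has a replicate error. MEFs were isolated at embryonic day 14.5 and were wild type or carried a doxycycline-inducible Tal1-2A-GFP transgene, with lentiviral vectors for the other factors. They were untreated (uFIB) or received Tal1 and Lmo2 (SL), Tal1, Fli1, Gata2 and Lmo2 (SFGL) or Fli1, Gata2 and Lmo2 (FGL), and were collected at days 12 and 21, each condition as 1 library. No difference could therefore be tested against replicates, and no p-value is given. Levels are in FPKM, fragments normalized for transcript length and library depth, so that genes can be compared within a column. Differences are in log2(FPKM + 1), a scale that shrinks changes of weakly expressed genes, and a gene is said to rise or fall where the difference was at least 2-fold on this scale and 1 of the compared columns reached 1 FPKM. The tables were normalized separately, and levels were compared within a table only.

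The labels were checked against 4 or 5 marker genes per stage, and the summed FPKM of the markers of ESC, MES, HB, HP and MAC was highest in the stage they define. Single markers differed from this, as Mixl1 and Eomes, markers of MES, were highest in HB (80.4 and 55.0 FPKM against 46.9 and 34.9 in MES), and Tal1, a marker of HB, was highest in HP (57.3 FPKM against 19.9). The sum in HP was mostly Hbb-bh1, an embryonic globin (5182 of 5305 FPKM). The fibroblast markers, which feeder cells also express, summed to between 1.06 FPKM in MAC and 37.3 FPKM in HP among the stages. In the MEFs their sum was 6386 and 5066 FPKM in uFIB at day 12 and day 21 and 906 to 2181 FPKM in the SL and SFGL libraries. In the SL libraries, which received neither Fli1 nor Gata2, Fli1 was at 46.7 and 34.4 FPKM at days 12 and 21. In uFIB it was at 3.43 and 3.02 FPKM. Gata2 in SL was at 68.8 and 62.6 FPKM against 1.80 and 2.13 FPKM in uFIB. These values do not separate delivered from endogenous transcripts. The library labelled FGL at day 12 held Tal1 at 7.04 FPKM against 0.0414 FPKM in uFIB, although Tal1 was not among the factors of this condition. Fli1 in the library labelled FGL at day 21 was at 3.35 FPKM against 3.02 FPKM in uFIB, although Fli1 was among the factors of this condition. All 9 members are described below by library label for these reasons. In bulk samples, fewer cells of a type and less RNA per cell cannot be told apart.

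Positions are given on GRCm38 (mm10). Ezh2 lies on chromosome 6 (47530274 to 47595030), Ezh1 on chromosome 11 (101191115 to 101226450), Suz12 on chromosome 11 (79993106 to 80034123) and Bmi1 on chromosome 2 (18677018 to 18686629). Their promoters are shown because Ezh2 and Suz12 were higher together in SL and SFGL MEFs. Ezh1 moved opposite to Ezh2 from HP to MAC, and Bmi1 did so in the MEFs. In the MEFs Ezh1 was higher together with Ezh2, and Jarid2, also higher there, is not printed. The printed genes were picked by their values, so no link between motif and direction can be read from them. The 250 bases before 1 annotated start of each gene, from RefSeq (GRCm38.p6), are written 5′ to 3′ on the gene's strand, with matches to CCAAT (or ATTGG on the other strand) and to TTTCCCGC, an E2F site, in capitals.
Ezh2, chr6:47595031-47595280, minus strand: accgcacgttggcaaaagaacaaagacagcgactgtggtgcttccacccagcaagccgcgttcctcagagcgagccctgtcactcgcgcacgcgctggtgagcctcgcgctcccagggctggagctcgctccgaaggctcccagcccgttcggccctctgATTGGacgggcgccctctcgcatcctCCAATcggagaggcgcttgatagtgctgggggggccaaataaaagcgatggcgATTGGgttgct
Suz12, chr11:79992856-79993105, plus strand: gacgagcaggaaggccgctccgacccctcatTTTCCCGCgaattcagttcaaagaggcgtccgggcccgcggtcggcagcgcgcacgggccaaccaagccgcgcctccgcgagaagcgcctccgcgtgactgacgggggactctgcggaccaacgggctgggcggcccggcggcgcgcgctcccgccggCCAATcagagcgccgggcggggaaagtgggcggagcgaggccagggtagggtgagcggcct
Ezh1, chr11:101226464-101226713, minus strand: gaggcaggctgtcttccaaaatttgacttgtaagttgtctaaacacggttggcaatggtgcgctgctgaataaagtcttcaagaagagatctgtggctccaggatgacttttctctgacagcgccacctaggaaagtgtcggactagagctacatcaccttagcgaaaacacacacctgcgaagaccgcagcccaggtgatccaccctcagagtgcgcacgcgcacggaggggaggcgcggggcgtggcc
Bmi1, chr2:18676768-18677017, plus strand: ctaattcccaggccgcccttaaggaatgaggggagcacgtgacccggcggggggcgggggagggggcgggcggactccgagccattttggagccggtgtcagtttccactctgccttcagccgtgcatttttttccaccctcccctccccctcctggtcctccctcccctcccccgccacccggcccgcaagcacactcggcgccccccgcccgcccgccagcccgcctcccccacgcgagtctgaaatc

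The RefSeq gene of Ezh2 reaches 47595270, so most of its window lies inside a longer model of the gene. Ezh2 held 3 CCAAT matches in this window, Suz12 held 1 CCAAT match and 1 TTTCCCGC match, and the windows of Ezh1 and Bmi1 held neither motif. Of 32851 RefSeq promoters of the same length, 33.8% held at least 1 CCAAT match, 2.79% held at least 3 and 0.895% held TTTCCCGC. A promoter was matched for 8 of the 9 genes, Cbx2 being the exception. Of those not printed, Cbx8 held 2 CCAAT matches, Cbx7 held 1 and Eed held none. Jarid2 had 2 promoters, of which 1 held 1 CCAAT match and the other none. A match describes the letters of the window and shows no binding.

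Among the PRC2 enzymes, Ezh2 exceeded Ezh1 in 4 of the 5 stages and the order was inverted in MAC. Ezh2 was at 40.5 FPKM in ESC, then 25.5 in MES and 30.4 in HB, with 23.7 in HP and 2.16 in MAC. It was thus high through HP and 18.8 times lower in MAC than in ESC. Ezh1 was at 3.99 FPKM in ESC, then 2.82 in MES and 3.56 in HB, with 2.39 in HP and 12.1 in MAC. Its highest level was in MAC, and the other 4 stages lay close together. The ratio of Ezh2 to Ezh1, which does not depend on the scaling of a column, was 10.2 in ESC and 9.03 in MES, then 8.52 in HB and 9.90 in HP, and it was 0.179 in MAC, where Ezh1 exceeded Ezh2 5.58-fold. The order of stages with close levels, such as MES and HB, could not be set against a spread between replicates.

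**Figure D1:**
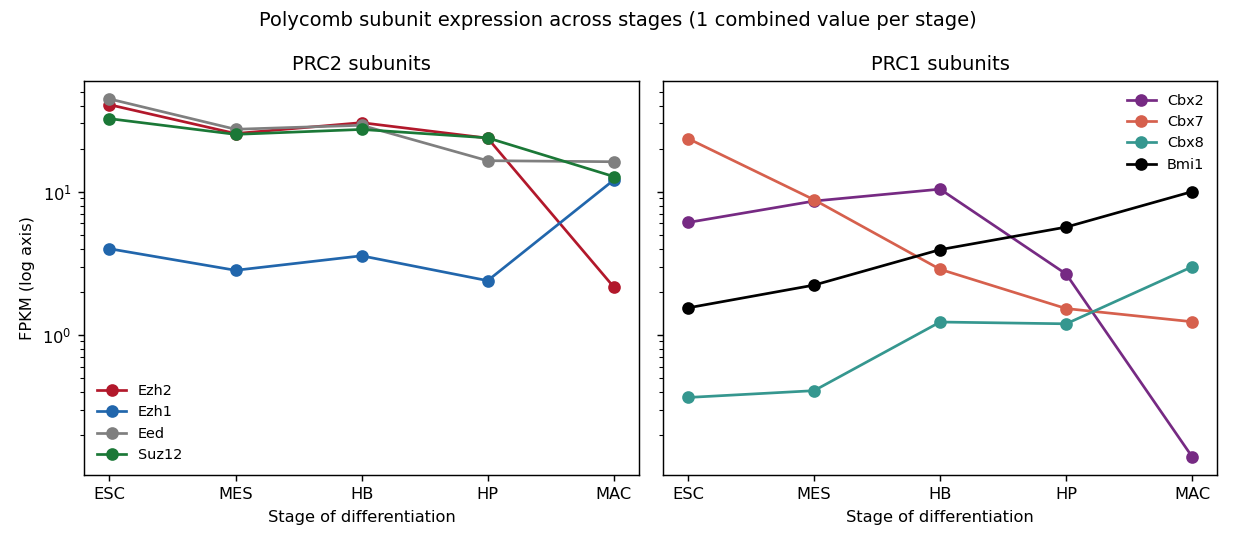
FPKM on a log axis of the PRC2 (left) and PRC1 (right) subunits in ESC, MES, HB, HP and MAC, 1 combined value per stage and gene, without error bars because the replicates are combined. Ezh2 and Ezh1 cross between HP and MAC, Cbx7 declines from 23.5 FPKM in ESC to 1.23 in MAC, and Bmi1 rises from 1.54 to 10.01 FPKM.

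The core subunits that both enzymes share differed less. Eed, which binds the methylated histone tail and stimulates the enzyme, lies on chromosome 7 (89954654 to 89980976) and was at 44.5 FPKM in ESC, then 27.3 in MES and 29.1 in HB, with 16.5 in HP and 16.2 in MAC. Suz12, the scaffold of the complex, was at 32.4, 25.1, 27.2, 23.8 and 12.8 FPKM in the same order. Both were highest in ESC and lowest in MAC, with a highest to lowest ratio of 2.75 for Eed and 2.54 for Suz12 against 18.8 for Ezh2.

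The CBX subunits differed from stage to stage in opposite directions. Cbx7, on chromosome 15 (79915807 to 79932646), was at 23.5 FPKM in ESC, then 8.78 in MES and 2.87 in HB, with 1.53 in HP and 1.23 in MAC, lower at each later stage. Cbx2, on chromosome 11 (119023029 to 119031270), was at 6.09 FPKM in ESC, then 8.60 in MES and 10.4 in HB, with 2.66 in HP and 0.140 in MAC. It had its highest level in HB and was nearly undetected in MAC. Cbx8, next to Cbx2 on chromosome 11 (119038436 to 119040913), was at 0.365 FPKM in ESC, then 0.407 in MES and 1.23 in HB, with 1.19 in HP and 2.99 in MAC. The neighbours Cbx2 and Cbx8 are separated by 7165 bases, and their levels moved apart from HP to MAC. In RefSeq Cbx8, on the minus strand, spans 119036303 to 119040913. The deposited model is thus shorter at the end of the gene that faces Cbx2, and the distance holds for the deposited models only. RefSeq places a non-coding gene over part of Cbx2 and another over the start of Ezh2, and Apobec3 over part of Cbx7, and reads of overlapping genes cannot be assigned to 1 of them with certainty.

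As shares of the summed FPKM of Cbx2, Cbx7 and Cbx8, Cbx7 was first among the 3 members in ESC with 78.5%. In MES it was close to Cbx2 (49.4% and 48.3%), and Cbx2 was first in HB (71.8%) and HP (49.4%). Cbx8 was first in MAC with 68.5%, followed by Cbx7 with 28.3% and Cbx2 with 3.21%. These shares leave out other CBX genes and give no order among all of them. The sum itself was 29.98 FPKM in ESC, then 17.8 in MES and 14.5 in HB, with 5.38 in HP and 4.36 in MAC, so the shares in HP and MAC divide a small total. Cbx6, another CBX gene, was at 7.10 FPKM in ESC and 4.405 FPKM in MAC, above Cbx8 in both, and was not analysed in the MEFs.

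Bmi1 was the only member whose level was higher at every later stage. It was at 1.54 FPKM in ESC, then 2.22 in MES and 3.94 in HB, with 5.66 in HP and 10.01 in MAC. Its relative Pcgf2 went the other way, with 10.7 FPKM in ESC, then 3.07 in MES and 3.21 in HB, with 2.00 in HP and 0.391 in MAC. The ratio of Bmi1 to Pcgf2 was accordingly 0.144 in ESC and 0.724 in MES, 1.23 in HB, then 2.83 in HP and 25.6 in MAC. Where only the highest TSS of Pcgf2 was used, the ratio in MES was 1.15. With 1 FPKM added to both genes the ratio in MAC was 7.92.

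**Figure D2:**
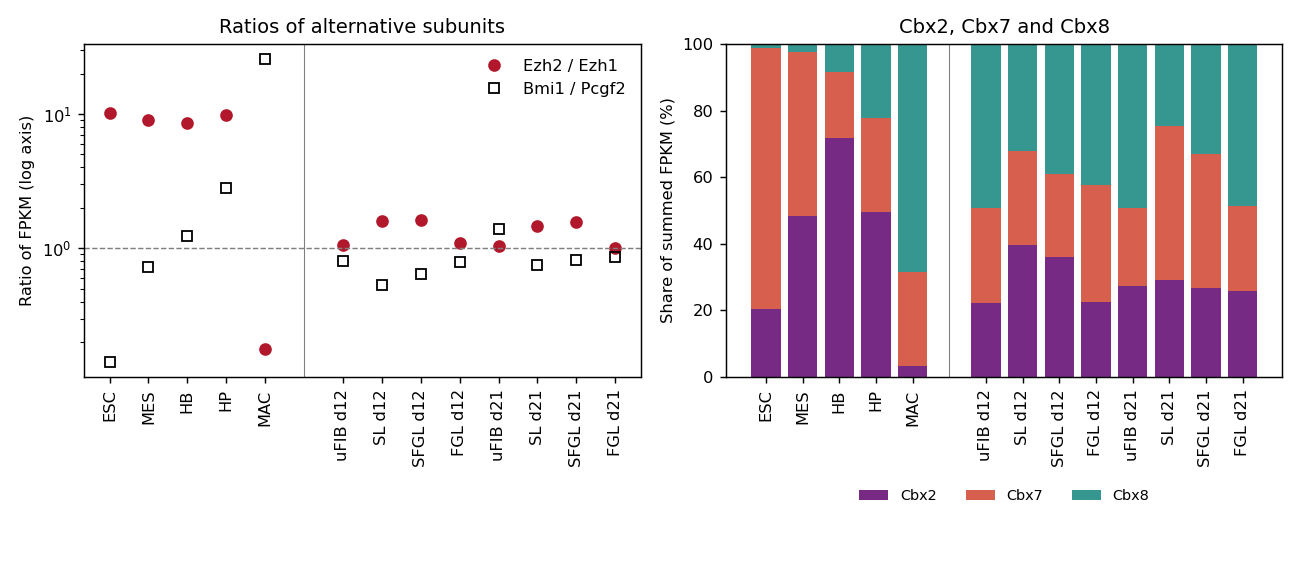
Left, ratios of FPKM of Ezh2 to Ezh1 (circles) and Bmi1 to Pcgf2 (squares) on a log axis, with a dashed line at 1; right, the percentage of the summed FPKM of Cbx2, Cbx7 and Cbx8 taken by each gene. The 5 stages are left of the vertical line and the 8 MEF libraries right of it (d, day). Both ratios cross 1 among the stages, and the largest share passes from Cbx7 in ESC to Cbx2 in HB and HP and to Cbx8 in MAC.

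Before MAC, 1 member passed the 2-fold limit at each comparison of consecutive analysed stages. This count is near the share of all genes from ESC to MES and not above it from HB to HP. The haemogenic endothelium, which lies between HB and HP, was not analysed here, so the comparison of HB with HP spans more than 1 step. From ESC to MES 1 of 7 members with at least 1 FPKM fell, Cbx7 (a log2 difference of -1.33), where 7.29% of all tested genes fell and 6.94% rose. From MES to HB 1 of 8 fell, again Cbx7 (-1.34), against 3.30% that fell and 2.52% that rose among all genes. The median of all genes shifted by 0.13 at this transition, and relative to it Cbx7 was at -1.47. Cbx8 differed by 0.66 from MES to HB, and with a pseudocount of 0.1 its difference of 1.39 passed the limit.

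From HB to HP 1 of 8 members fell, Cbx2 (-1.64), while 8.78% of all genes fell and 8.84% rose, around a median of -0.13. Eed (-0.79) and Cbx7 (-0.62) were also lower in HP without reaching 2-fold. The directions of Eed (0.09) and Suz12 (0.11) from MES to HB and of Cbx8 (-0.02) from HB to HP changed with the scaling of the columns.

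From HP to MAC Ezh2 (-2.96) and Cbx2 (-1.68) fell and Ezh1 (1.95) rose, so that 3 of 8 members passed the limit. Of all tested genes 33.4% rose and 13.8% fell, so the share of the members past the limit was not above the background. The median of all tested genes was 0.45. Relative to this median Ezh2 was at -3.41, Cbx2 at -2.13 and Ezh1 at 1.497. Ezh2 was at the percentile 2.38 of all tested genes, and Ezh1 at the percentile 85.0. With the upper quartiles of both columns made equal, the 3 members were at -3.48, -1.84 and 1.30, and the median of all genes was at -0.17, with 2089 genes that rose and 2636 that fell in place of 3623 and 1500.

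The remaining members depended more on the scaling. Suz12 was at -0.85 as deposited and passed the limit at -1.53 after upper quartile scaling and at -1.28 after scaling by the median of ratios. Eed was at -0.02 as deposited and at -0.71 and -0.45 after these scalings. Bmi1, at 0.73, was at 0.08 and 0.32, and Cbx8, at 0.86, was at 0.36 and 0.55. Cbx8 passed the limit with a pseudocount of 0.1 (1.26).

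Over the whole course, all 8 members passed the limit between ESC and MAC, where 36.5% of all tested genes rose and 22.0% fell. After upper quartile scaling the balance was inverted, with 2656 genes that rose and 3848 that fell in place of 4192 and 2524. Ezh2 (-3.72), Cbx7 (-3.46), Cbx2 (-2.64), Eed (-1.40) and Suz12 (-1.28) fell. Bmi1 (2.11), Cbx8 (1.55) and Ezh1 (1.39) rose. The rise of Ezh1 from ESC was 0.66 after upper quartile scaling and 0.92 after scaling by the median of ratios, under the limit.

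Genes of the cell cycle moved with Ezh2 at the same transition. Of 14 proliferation genes, 13 fell from HP to MAC, and the median of the 14 was -3.66. The summed FPKM of all 14 was 826 to 1005 from ESC to HP and 147 in MAC. The exception was Pcna, at 65.1 FPKM in HP and 87.5 in MAC, which made up most of the sum in MAC. Mcm5, a subunit of the replicative helicase, went from 101 to 5.05 FPKM, and Ccnb1, a mitotic cyclin, from 15.2 to 0.587 FPKM. Mki67, a marker of dividing cells, went from 51.3 to 2.46 FPKM. The part of proliferation in the difference of Ezh2 was not tested. Cdkn2a, a classic target of Polycomb repression that restrains the cell cycle, was at 9.64 FPKM in ESC, then 1.45 in MES and 2.44 in HB, with 27.2 in HP and 148 in MAC.

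In the MEFs the PRC2 members Ezh2, Suz12 and Jarid2 were higher in SL and SFGL than in uFIB, and Bmi1 was lower. Values of the 8 libraries follow in the order uFIB, SL, SFGL and FGL. Ezh2 was at 7.83, 18.1, 16.6 and 8.77 FPKM at day 12 and at 8.38, 16.3, 15.1 and 8.25 FPKM at day 21. The SL and SFGL libraries lay between 15.1 and 18.1 FPKM on both days and the uFIB and FGL libraries between 7.83 and 8.77 FPKM. On each day the counting intervals of SL and SFGL overlapped, as did those of uFIB and FGL. Suz12 was at 8.64, 23.9, 25.5 and 11.0 FPKM at day 12 and at 7.12, 20.9, 24.4 and 7.75 FPKM at day 21, again without overlap between these sets of 4 libraries. Jarid2, on chromosome 13 (44730774 to 44921643 in RefSeq), was at 4.44, 13.8, 15.1 and 4.96 FPKM at day 12 and at 5.84, 9.32, 9.27 and 6.80 FPKM at day 21. Its excess in SL and SFGL was smaller at day 21 than at day 12.

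Ezh1 and Eed stayed under the 2-fold limit in the MEFs. Ezh1 was at 7.44, 11.2, 10.2 and 7.97 FPKM at day 12 and at 8.10, 11.1, 9.56 and 8.27 FPKM at day 21, higher in the SL and SFGL libraries by less than Ezh2, with a ratio of SL to uFIB at day 12 of 1.51 (95% counting interval 1.36 to 1.68). The ratio of Ezh2 to Ezh1 was 1.05, 1.61, 1.63 and 1.10 at day 12 and 1.03, 1.47, 1.58 and 0.998 at day 21. The enzymes were thus at similar levels in uFIB and FGL, and Ezh2 was ahead in SL and SFGL. Eed was at 12.6, 15.0, 15.1 and 12.2 FPKM at day 12 and at 10.3, 13.04, 12.2 and 15.2 FPKM at day 21, with its highest level in FGL at day 21.

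Bmi1 was low in the libraries where Ezh2 was high. It was at 17.1, 7.03, 6.76 and 15.6 FPKM at day 12 and at 20.7, 8.80, 7.23 and 19.2 FPKM at day 21. All 4 SL and SFGL libraries lay at or under 8.80 FPKM and all 4 uFIB and FGL libraries at or above 15.6 FPKM. Pcgf2 was at 21.2, 13.1, 10.54 and 19.5 FPKM at day 12 and at 14.8, 11.6, 8.85 and 22.2 FPKM at day 21, so the ratio of Bmi1 to Pcgf2 stayed between 0.535 and 1.40 in the MEFs.

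The CBX members were low in the MEFs and overlapped between the sets of libraries. Cbx2 was at 2.22, 5.09, 4.85 and 2.47 FPKM at day 12 and at 2.20, 2.95, 2.39 and 2.44 FPKM at day 21, and was highest in SL and SFGL at day 12. Cbx7 was at 2.86, 3.64, 3.33 and 3.82 FPKM at day 12 and at 1.89, 4.68, 3.64 and 2.42 FPKM at day 21. Cbx8 was at 4.97, 4.15, 5.27 and 4.66 FPKM at day 12 and at 3.96, 2.50, 2.97 and 4.62 FPKM at day 21. Of the sum of these 3 genes, Cbx8 took the largest share in uFIB (49.4% at day 12 and 49.2% at day 21) and in FGL (42.5% and 48.7%). In SL the first was Cbx2 at day 12 (39.5%) and Cbx7 at day 21 (46.2%), and in SFGL it was Cbx8 at day 12 (39.2%) and Cbx7 at day 21 (40.5%).

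**Figure D3:**
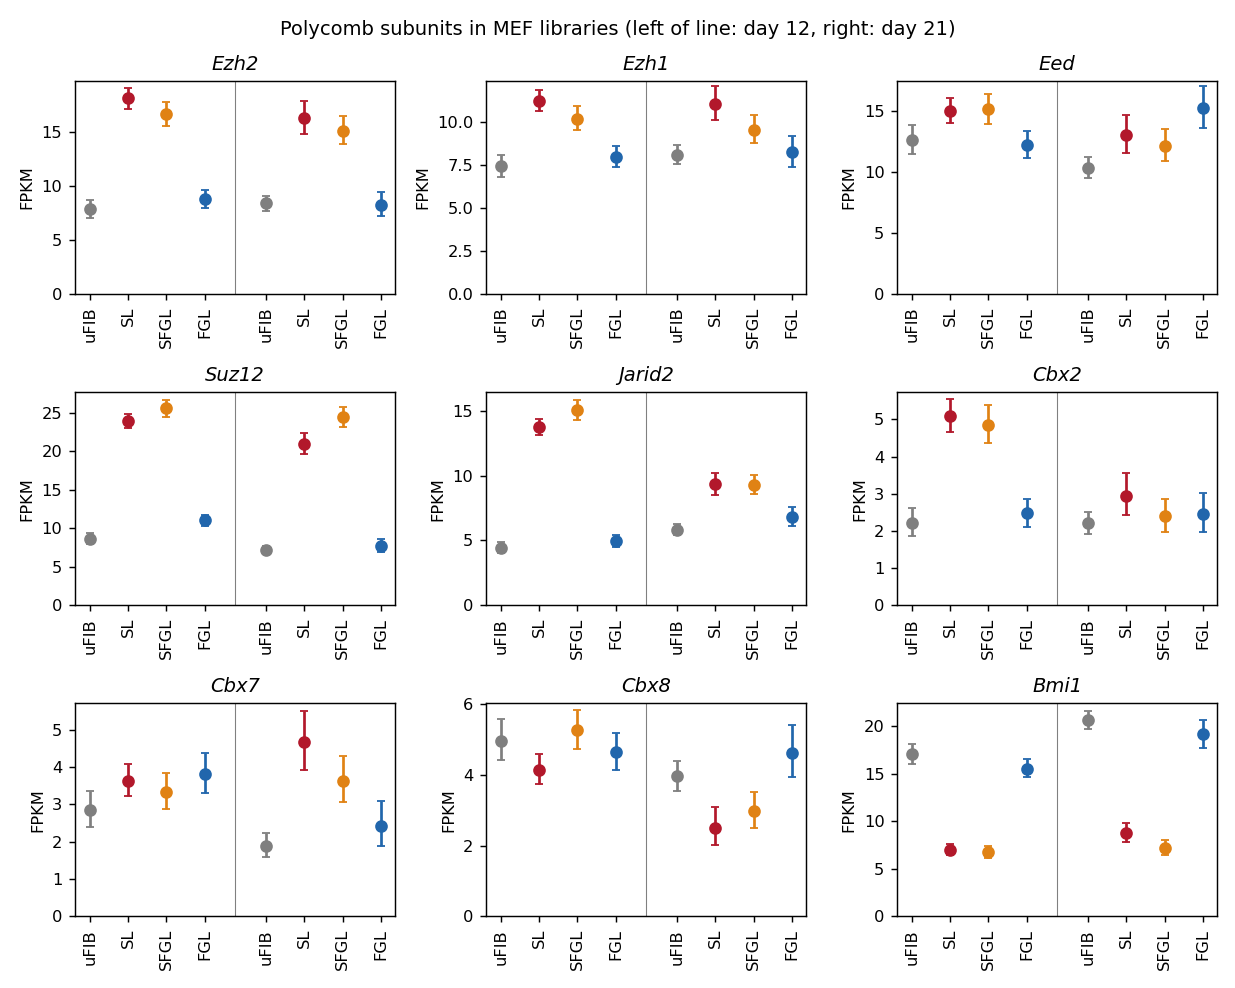
FPKM of each of the 9 members in the 8 MEF libraries, with day 12 left and day 21 right of the vertical line in each panel (grey uFIB, red SL, orange SFGL, blue FGL). Bars are 95% exact Poisson intervals of the reads estimated from the steps of low values, cover counting error only and are probably too narrow. Ezh2, Suz12 and Jarid2 are higher and Bmi1 is lower in SL and SFGL than in uFIB and FGL.

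Counting error was estimated from the steps between low values, taking the lowest step as 1 read. The member values then rested on 68 reads (Cbx7 in FGL at day 21) to 2713 reads (Suz12 in SL at day 12). The depth that this step implies is above the number of aligned reads the study gives for each library, so the read numbers are probably too high and the intervals too narrow. The ratio of SL to uFIB at day 12 was 2.31 for Ezh2 (95% counting interval 2.06 to 2.60), 2.77 for Suz12 (2.54 to 3.02), 3.10 for Jarid2 (2.77 to 3.47) and 0.412 for Bmi1 (0.373 to 0.454). At day 21 it was 1.94 for Ezh2 (1.72 to 2.20), 2.94 for Suz12 (2.67 to 3.24), 1.60 for Jarid2 (1.42 to 1.80) and 0.425 for Bmi1 (0.376 to 0.479). For Cbx8 the ratio of SFGL to uFIB at day 12 was 1.06 (0.905 to 1.24), so no difference was detectable at this depth. These intervals hold no variation between cultures, and PCR copies of a read are not independent molecules.

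On the log2 scale, SL at day 12 differed from uFIB by 1.11 for Ezh2, 1.37 for Suz12, 1.44 for Jarid2 and -1.17 for Bmi1, so that 3 of 9 members rose and 1 fell. Among all tested genes 14.2% rose and 13.5% fell. In SFGL at day 12 Suz12 (1.46) and Jarid2 (1.56) rose and Bmi1 (-1.22) fell, against 14.7% and 17.0% of all genes. Ezh2 in SFGL at day 12, at 0.998, lay just under the limit and passed it at 1.03 after scaling by the median of ratios. Cbx2 passed the limit with a pseudocount of 0.1 at day 12, in SL at 1.16 and in SFGL at 1.09.

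At day 21 Suz12 rose and Bmi1 fell in both treatments, with differences of 1.43 and -1.15 in SL and of 1.65 and -1.40 in SFGL. The shares of all tested genes were 11.9% that rose and 12.3% that fell in SL and 13.9% and 15.9% in SFGL. Ezh2 was at 0.88 in SL and 0.78 in SFGL, and Jarid2 at 0.59 in both. Cbx7 was at 0.98 in SL and passed the limit with a pseudocount of 0.1 (1.27). SL and SFGL were compared with the same uFIB library of each day and are not independent of each other.

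In the libraries labelled FGL 0 of 9 members passed the limit on either day, where 3.26% of all tested genes did so at day 12 and 0.855% at day 21. The largest difference of a member was that of Eed at day 21, 0.52, at the percentile 97.0 of all tested genes. Between day 21 and day 12 of the same treatment 0 members passed the limit, against 3.14% of all genes in uFIB, 4.70% in SL and 4.95% in SFGL, and 7.30% in FGL. Within SFGL Cbx2 (-0.79), Cbx8 (-0.66) and Jarid2 (-0.65) were lower at day 21.

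**Figure D4:**
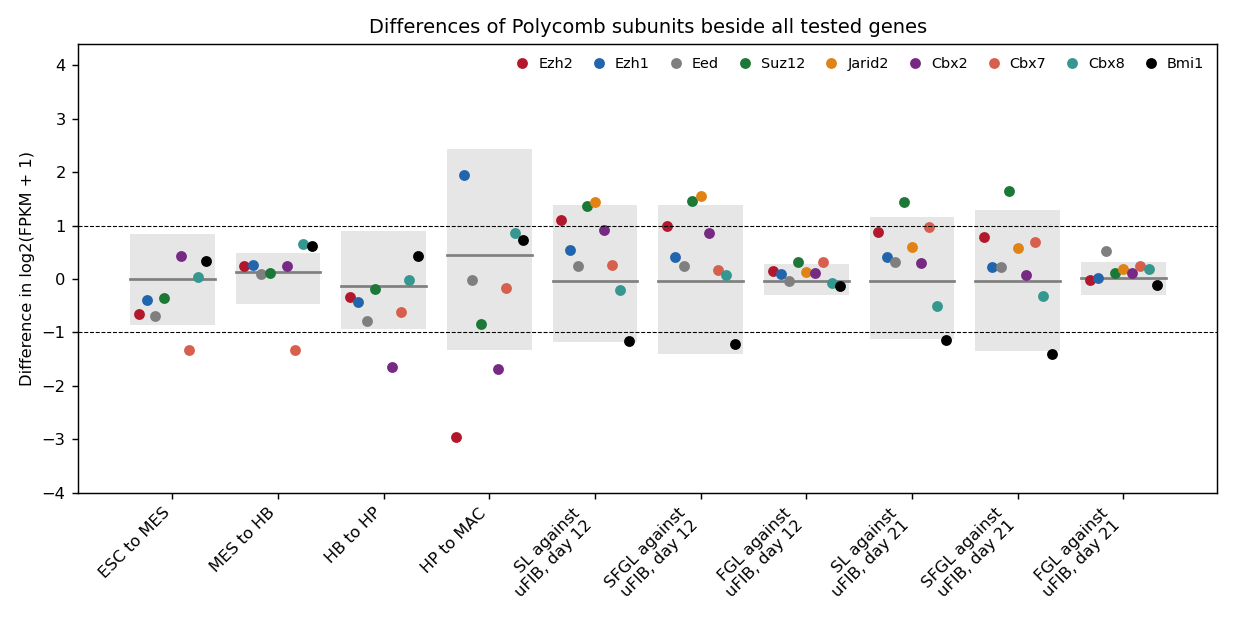
Differences in log2(FPKM + 1) of the members (coloured points) between consecutive analysed stages and between treated and untreated MEFs of the same day. Grey boxes span the percentiles 10 to 90 of all tested genes, grey lines are their median and dashed lines mark a 2-fold difference. Ezh2 and Cbx2 lie under the box from HP to MAC, and Cbx2 also from HB to HP. Cbx7 lies under it from ESC to MES and from MES to HB, where Cbx8 and Bmi1 lie above it. Jarid2 lies above it in SL and SFGL at day 12. Suz12 lies above it in SFGL at day 12 and in SL and SFGL at day 21, where Bmi1 lies under it. In FGL, Suz12 and Cbx7 lie above it at day 12 and Eed at day 21.

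Taking both days together, 5 of 9 members did not overlap between the 4 SL and SFGL libraries and the 4 uFIB and FGL libraries. These were Ezh2, Ezh1, Suz12 and Jarid2, which were higher, and Bmi1, which was lower. Of all tested genes 29.1% were higher and 31.0% lower without overlap, so the share of the members is near the background. The proliferation genes moved with these libraries, as 14 of 14 rose at day 12 and 13 of 14 at day 21 in both treatments, and their summed FPKM was 149, 674, 651 and 209 at day 12 in the order uFIB, SL, SFGL and FGL, and 151, 542, 550.3 and 143 at day 21. The fibroblast markers fell in 6 of 6 and the blood markers rose in 4 of 4 cases in SL and SFGL on each day. In the library labelled FGL at day 12, 2 of 14 proliferation genes and 3 of 4 blood markers rose as well. The part of proliferation and of the mixture of cells in the differences of Ezh2, Suz12, Jarid2 and Bmi1 was not tested.

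Of 35 other genes of the Polycomb system, 31 were analysed in the stages and 34 in the MEFs. From ESC to MES 1 of 29 with at least 1 FPKM rose and 3 fell, where 6.94% of all tested genes rose and 7.29% fell. Epop, a PRC2 partner of ESCs listed as E130012A19Rik, went from 39.9 to 8.24 FPKM and Pcgf2 from 10.7 to 3.07 FPKM, while Bcor, a subunit of a non-canonical PRC1, went from 3.40 to 8.96 FPKM. From MES to HB 0 of 27 rose and 1 fell, Phc1, a polyhomeotic subunit of canonical PRC1 (12.2 to 5.24 FPKM), against 2.52% and 3.30% of all tested genes. From HB to HP 0 of 27 rose and 3 fell, among them Epop (8.66 to 3.12 FPKM) and Pcgf6, of a non-canonical PRC1 (16.9 to 7.58 FPKM). Of all tested genes 8.84% rose and 8.78% fell. After both scalings 1 of the other Polycomb genes fell, Epop, and Pcgf6 (-1.06 as deposited) was at -0.99 and -0.94. Of all genes 875 fell after upper quartile scaling and 804 after scaling by the median of ratios, in place of 924. Without reaching 2-fold, Yaf2, of a non-canonical PRC1, went from 4.85 to 10.6 FPKM between ESC and MES. Between MES and HB, Kdm2b, which brings a non-canonical PRC1 to CpG islands, went from 20.9 to 17.0 FPKM, Pcgf5 from 6.56 to 11.8 and Rybp from 2.999 to 5.19. Between HB and HP, Bcor went from 11.0 to 15.3 FPKM and Pcgf5 from 11.8 to 16.1.

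From HP to MAC 1 of 27 tested other Polycomb genes rose and 8 fell, where 33.4% of all tested genes rose and 13.8% fell. The riser was Ring1, a ubiquitin ligase subunit of PRC1 (2.48 to 7.86 FPKM). Its difference of 1.35 passed the limit as deposited but not after upper quartile scaling (0.73) or scaling by the median of ratios (0.96). After these scalings 0 of the other Polycomb genes rose and 14 and 11 fell. The background moved too, as 2089 of all genes rose and 2636 fell after upper quartile scaling. After scaling by the median of ratios 2590 rose and 2131 fell, in place of 3623 and 1500 as deposited. Among genes that reached 5 FPKM in 1 of the 2 stages, the largest falls were those of Pcgf5 (16.1 to 5.84 FPKM) and Bcor (15.3 to 6.25 FPKM). The weakly expressed Phc1 (4.42 to 0.397 FPKM) and Epop (3.12 to 0.429 FPKM) fell further, with log2 differences of -1.96 and -1.53. The median difference of the other Polycomb genes was -0.38 against 0.45 for all tested genes, and that of the 8 members was -0.10. Aebp2, an accessory subunit of PRC2, was at 22.5 FPKM in HP and 40.8 in MAC, under the limit. Rnf2, the other ligase subunit, was at 20.6 FPKM in HP and 19.4 in MAC. In MEFs 3 of 31 other Polycomb genes rose and 0 fell in SL at day 12, against 14.2% and 13.5% of all tested genes. At day 21, 4 of 31 rose and 0 fell, against 11.9% and 12.3%. Mtf2, an accessory subunit of PRC2, was at 4.52 FPKM in uFIB and 15.1 in SL at day 12 and at 3.34 and 15.2 FPKM at day 21. Asxl1, of the deubiquitinase that opposes PRC1, was at 13.1 and 28.6 FPKM at day 12, and Pcgf5 at 3.49 and 9.87 FPKM at day 21. The largest decreases in SL stayed under 2-fold, with Auts2 at 11.5 and 5.51 FPKM and Pcgf3 at 29.7 and 18.5 FPKM in uFIB and SL at day 12, and Rybp at 13.1 and 9.41 and Phc1 at 7.30 and 5.23 FPKM at day 21. SFGL had 4 of 32 that rose and 1 that fell at day 12, against 14.7% and 17.0% of all tested genes. At day 21 it had 5 of 31 that rose and 0 that fell, against 13.9% and 15.9%. The libraries labelled FGL had 0 of 30 past the limit on either day, against 3.26% of all tested genes at day 12 and 0.855% at day 21.

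The genes whose levels varied most like those of a member were sought among 1894 genes. These averaged at least 5 FPKM and had a range of at least 1 on the log2 scale in both tables. The measure was the mean of Pearson's r over the 5 stages and over the 8 MEF libraries, which compares neither level nor size of change. In the MEFs Ezh1 (highest to lowest ratio 1.51) and Cbx7 (highest 4.68 FPKM) did not themselves meet these limits. For Ezh2 they were Cdc20 (mean r of 0.996), Ccnf (0.995) and Kif18b (0.994). For Ezh1 they were Map3k1 (0.961), B3gnt2 (0.954) and Alas1 (0.954). For Cbx7 they were Ccrn4l (0.898), Spint2 (0.851) and Eno1 (0.845). With Spearman's rho, 1 of 3 was again among the first 3 for Ezh2 and for Cbx7 and 0 of 3 for Ezh1. These values describe few points that share libraries and depth.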

How the data were processed

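RNA-seq was analysed for 10 samples of 5 ESC-derived stages and 8 MEF libraries. The authors aligned the reads to mm10 and deposited expression as FPKM from Cufflinks, per TSS with replicates combined for the stages (SHRiMP alignment, unique reads, duplicates removed with Picard) and per gene for the MEFs (TopHat per the labels). Versions are not given in the sources used here. Genes with near-identical copies lose reads when only unique ones are kept. FPKM hides read numbers, so depth was estimated from the steps of low values; 8.55% to 14.4% of them sat on the lowest step, which was taken as 1 read, and intervals (95%, exact) are too narrow if it is less than 1 read, which the smaller number of aligned reads in the study points to. The stage table has no such estimate.

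The values of a gene's TSSs were added up, and a locus with several names was split evenly between them; 1 further value column (HE, haemogenic endothelium) was not used. Differences were taken on log2(FPKM + 1) with a minimum of 1 FPKM in 1 of the compared columns and a limit of 2-fold, without tests. The planned limma test was not run because the stage table has no replicate columns. The code of the calls was run on simulated data with 200 changed genes. Their changes lay well past the limit and no weakly expressed gene was included, so this says nothing about calls near the limit. Alternatives were pseudocounts of 0.1 and 0.001, 2 scalings, folds of 1.5 and 4, other minimums, the highest TSS, the mean of both uFIB libraries, ratios of FPKM + 1 and Spearman's rho. ESC against MAC, the alternatives of other Polycomb genes and the Bmi1 to Pcgf2 ratio were added after the values were seen, and Pcgf2 and Rnf2 were named in full after their values were seen.

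Members and gene lists were chosen with earlier results of these data known. Named were all members, the other Polycomb genes with the 2 largest rises and falls per transition and in SL (at least 5 FPKM), Mki67, Mcm5, Ccnb1, Cdkn2a and the 3 genes most like Ezh2, Ezh1 and Cbx7. A gene of the planned lists is not reported here. Promoter sequences were those of RefSeq (GRCm38.p6). Calculations ran in Python 3.11.15 with pandas 2.3.3, NumPy 2.4.6 and SciPy 1.17.1, and plots in matplotlib 3.10.9.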

Additional observations from a re-analysis of the deposited data

Results flagged for a closer look

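The differences of some members from uFIB had opposite signs at day 12 and day 21 under the same treatment, on log2(FPKM + 1). The difference between the days was not tested. In SFGL, Cbx8 was at 0.071 at day 12 and at -0.32 at day 21. In the libraries labelled FGL, Ezh2 was at 0.15 and -0.020, Eed at -0.042 and 0.52 and Cbx8 at -0.077 and 0.18. At day 12 the counting interval of the ratio to uFIB included 1 for each of these. It was 0.905 to 1.24 for Cbx8 in SFGL. In FGL it was 0.972 to 1.29 for Ezh2, 0.849 to 1.11 for Eed and 0.795 to 1.10 for Cbx8. At day 21 it excluded 1 for Cbx8 in SFGL (0.610 to 0.914) and for Eed in FGL (1.28 to 1.70). It included 1 for Ezh2 (0.838 to 1.15) and Cbx8 (0.963 to 1.41) in FGL at day 21. No reversal thus exceeded counting error on both days. With 1 library per condition each direction rests on a single pair of libraries, and the sign of Eed in FGL at day 12 changed with scaling (0.01 and 0.02).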

How the results depend on the processing

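No paired analysis was possible because the stage values already combine the replicates and each MEF condition has 1 library, and for the same reason no replicate was left out. No result changed direction past the limit. The ratio of Ezh2 to Ezh1 moved little where 1 FPKM was added to both genes. Each analysed member had 1 TSS in the stages, so taking the highest TSS could not change a member value or a Cbx share. No other alternative was run for the Cbx shares. Of 614 alternative values of single members, 580 stayed close to the reported ones, and these include the values that the highest TSS could not change.

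With a fold of at least 1.5 the members that passed were 3 from ESC to MES, 3 from MES to HB, 3 from HB to HP and 6 from HP to MAC, 5 in SFGL at day 12, at day 21 5 each in SL and SFGL, and 1 in SL and 3 in SFGL between the days. With a fold of at least 4 they were 0, 0, 0 and 1 at the 4 transitions, 4 from ESC to MAC and 0 in SL and SFGL on both days. Of all genes, too, more passed at a fold of 1.5 and fewer at a fold of 4 than at 2-fold. No share of all genes was taken at these folds, so no excess of members can be read from the member counts. With a pseudocount of 0.1 or 0.001, 2 members passed from MES to HB and 5 in SFGL at day 12, and with 0.001, 1 passed between the days in SFGL (Cbx2, -1.02).

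Of the other Polycomb genes, a fold of at least 1.5 passed 14, 5, 6 and 15 at the 4 transitions, 19 from ESC to MAC, at day 12 10 in SL and 12 in SFGL, and at day 21 8 in SL and 11 in SFGL with 1 in FGL. A fold of at least 4 passed 1, 0, 0 and 0 at the transitions, 4 from ESC to MAC, 0 in both treatments at day 12, and at day 21 0 in SL and 1 in SFGL. The counts at folds of 1.5 and 4 were likewise not compared with the share of all genes at these folds. Either smaller pseudocount passed 9 from ESC to MES, 3 from MES to HB, 6 in SL and 9 in SFGL, both at day 12. Upper quartile scaling passed 2 from MES to HB, 1 from HB to HP and 14 from HP to MAC, and scaling by the median of ratios passed 1 from HB to HP.

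Over the alternatives other than the fold, the number of all genes past the limit was 1104 to 2472 from ESC to MES (reported 1512), 362 to 1058 from MES to HB (596), 1162 to 2633 from HB to HP (1854), 4210 to 5956 from HP to MAC (5123) and 5316 to 7516 from ESC to MAC (6716). In SL it was 2756 to 4253 at day 12 (3407) and 2297 to 3744 at day 21 (2987), in SFGL 3100 to 4736 (3899) and 2861 to 4554 (3699) and in FGL 200 to 608 (388) and 58 to 249 (100). Between the days it was 274 to 731 in uFIB (369) and 425 to 972 in SL (564), then 462 to 1078 in SFGL (587) and 546 to 1324 in FGL (879). After upper quartile scaling 2656 genes rose and 3848 fell from ESC to MAC, in place of 4192 and 2524.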

Other observations

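Cdkn2b, which lies beside Cdkn2a at the Ink4 locus and encodes another inhibitor of the cell cycle, was at 2.11 FPKM in ESC, then 0.514 in MES and 0.802 in HB, with 1.94 in HP and 5.84 in MAC. In the MEFs Cdkn2a was at 27.5, 31.0, 40.9 and 27.1 FPKM in uFIB, SL, SFGL and FGL at day 12 and at 71.4, 58.9, 73.6 and 76.4 FPKM at day 21. Cdkn2b was at 34.1, 22.2, 23.2 and 31.8 FPKM at day 12 and at 47.3, 38.0, 37.1 and 55.9 FPKM at day 21. Both genes were higher at day 21 than at day 12 in each of the 4 conditions, and Cdkn2a was higher in SL and SFGL than in uFIB and FGL at day 12, while these libraries overlapped at day 21. Cdkn2b was lower in SL and SFGL than in uFIB and FGL within each day, with overlap across the days. These values were looked at after the members' values were known, and reads of the Cdkn2a products that share exons cannot be told apart.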
